A study of Mus musculus with 22 samples.

Results

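The genes described here are 9 members of the epidermal growth factor (EGF) receptor system, taken by name from the 17541 genes that the deposited counts list. They are 3 receptors (Egfr, Erbb2 and Erbb3), 5 ligands (Areg, Ereg, Hbegf, Tgfa and Epgn) and 1 receptor antagonist (Lrig1). Each was followed per mouse across untreated controls, mice with eosinophilic esophagitis (EoE) and mice with esophageal squamous cell carcinoma (ESCC), and along the axis from basal to differentiated cells. Esophageal epithelium of C57BL6 mice was peeled, dissociated and profiled by inDrop, a droplet method that gives a count of unique molecular identifiers (UMIs) per gene and cell. Controls were 3 young mice of 3 to 4 months and 3 old mice of 18 to 20 months. EoE was induced with the vitamin D analog MC903 on the ears and ovalbumin (OVA) in 2 young mice of 6 to 8 weeks and 2 old mice of 19 to 20 months. ESCC was induced with the carcinogen 4-nitroquinoline 1-oxide (4NQO) in the drinking water of 3 mice (17F, 17M and 8M) that were 8 to 10 months old. The ages of the ESCC mice lie between those of the young and old controls, so age and 4NQO cannot be told apart in that comparison.

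EGF family ligands are made as membrane proteins that metalloproteases cut loose, after which they bind EGFR on the same or a neighboring cell. Bound receptors pair with each other or with ERBB2 and ERBB3 and signal through RAS, ERK and PI3 kinase, which in stratified epithelium drives growth, migration and wound repair. ERBB2 binds no ligand of its own, ERBB3 has little kinase activity and recruits PI3 kinase when paired, and LRIG1 is a transmembrane protein that lowers the amount of receptor at the surface and marks slowly dividing epithelial progenitors.

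On the GRCm38 assembly, in the GENCODE M21 annotation, all 9 were protein-coding genes. Epgn (chromosome 5, 91027464 to 91035215), Ereg (91074622 to 91093646) and Areg (91139599 to 91148432) lay side by side on the plus strand within 121 kb. Egfr (chromosome 11, 16752203 to 16918158) and Erbb2 (98412470 to 98437716) shared a chromosome but not a neighborhood. Erbb3 was on chromosome 10 (128567523 to 128589652, minus strand), Tgfa on chromosome 6 (86195223 to 86275719, plus strand) and Lrig1 also on chromosome 6 (94604529 to 94700158, minus strand). Erbb2 overlapped the oppositely oriented Mien1 and Lrig1 overlapped the oppositely oriented Slc25a26. Whether the counting used strand is not given in the sources used here, so reads from those overlaps could have been assigned to either gene. The cells used held 657 UMIs of Mien1 and 63 of Slc25a26.

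RefSeq promoter windows (GRCm38.p6, 250 bases before to 50 bases from the start on) were at hand for 6 members. Areg and Epgn are shown because they are neighbors in the ligand cluster, of which Epgn was higher in every ESCC mouse than in the controls while Areg did not pass the test. Capitals mark the TATA box TATAAA on the printed strand, which began at position -31 from the RefSeq start in Areg and at -86 in Epgn. The GENCODE start of Epgn (91027464) lies upstream of its RefSeq start, so the box is nearer to the GENCODE start. For Areg both starts are the same. The chromosome 5 windows were 91139349 to 91139648 for Areg and 91027267 to 91027566 for Epgn, both on the plus strand.
Areg: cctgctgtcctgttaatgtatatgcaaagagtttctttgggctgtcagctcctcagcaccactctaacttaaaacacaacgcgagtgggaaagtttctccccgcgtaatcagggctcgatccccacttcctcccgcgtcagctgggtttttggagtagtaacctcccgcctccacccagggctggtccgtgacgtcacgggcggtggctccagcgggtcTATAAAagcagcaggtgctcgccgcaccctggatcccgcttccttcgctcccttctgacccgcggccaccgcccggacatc
Epgn: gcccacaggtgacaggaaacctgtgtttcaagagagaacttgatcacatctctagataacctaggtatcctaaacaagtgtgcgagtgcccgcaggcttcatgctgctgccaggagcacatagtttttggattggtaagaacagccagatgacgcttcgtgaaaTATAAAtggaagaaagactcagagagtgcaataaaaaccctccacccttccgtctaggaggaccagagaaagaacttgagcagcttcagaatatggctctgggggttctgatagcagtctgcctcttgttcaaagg
Searched on both strands, TATAAA was in 13.6% of the 32851 promoters of this length and, of the 6 members, in Areg and Epgn. The GC box GGGCGG was in 35.7% of all promoters and in Egfr, Areg, Tgfa and Lrig1. The AP-1 site TGANTCA was in 7.81% of all promoters and in none of the 6 windows. The window of Areg was 59.3% G and C and that of Epgn 47.3%, against 73.0% for Lrig1 and 70.7% for Tgfa.

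Depth and cell makeup differed among the groups. Cells within the study's limits on genes and UMIs and not called non-epithelial by marker genes numbered 1493 in controls, 143 in EoE and 1467 in ESCC, with a median of 990, 519 and 3108 UMIs per cell. They held 1744511, 97975 and 5061004 UMIs, so that 3 UMIs over a group, taken as the detection floor, correspond to 1.72, 30.6 and 0.593 CPM, the field's usual scaling of counts to a common library total. The EoE mice kept 41 (mouse 9), 57 (10), 11 (11) and 34 (12) cells. Krt5-high cells made up 862 of the control, 20 of the EoE and 1230 of the ESCC cells, and Krtdap-high cells 476, 85 and 83, by a score defined further on. Markers of the esophageal epithelium were present in every group, with Krt4, a keratin of differentiated cells, at 28501 raw CPM in controls and 86583 CPM in EoE, and the basal keratin Krt14 at 9997 CPM in ESCC against 2354 CPM in controls. Basal markers (8 genes, Krt14 among them) were 1.86 to 2.87% of the UMIs in ESCC mice, 1.27 to 1.94% in controls and 0.173 to 0.320% in EoE. Of these genes, Krt5 was 9715 raw CPM in ESCC against 4852 in controls, while Trp63 went the other way, at 375 against 455. In EoE Krt5 (480 raw CPM), Krt14 (133) and Trp63 (61.2) were each below controls. Immune markers (21 of 25 listed genes) were 0.0168 to 0.0259% of the UMIs in ESCC mice, 0.00346 to 0.00933% in controls and 0 in EoE, and the T cell and leukocyte markers Cd3e and Ptprc were at 0 UMIs in controls and EoE. Endothelial markers (6 genes) were 0.00716 to 0.0278% of the UMIs in EoE mice and at most 0.000994% in controls and ESCC, and fibroblast markers (9 genes) 0.0144 to 0.0504% in controls, 0.00301 to 0.0153% in ESCC and 0 to 0.0471% in EoE. The part of these cell types in the results was not tested. In the 38 cells called non-epithelial the members gave 5 UMIs of Hbegf (69.5 raw CPM), 1 of Erbb2, 1 of Tgfa and none of the other 6 among 71966 UMIs. Of these cells 4 were from EoE, with 817 UMIs.

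Controls and ESCC mice had 2 libraries each, and the libraries of a mouse shared cells. Of the barcodes, 239 occurred in both libraries of a mouse (122 in controls and 117 in ESCC), up to 52 per mouse, against at most 4 between libraries of different mice. Profiles under a shared barcode had a median Pearson correlation of 0.824 over 2656 genes, against 0.459 for another cell of the same library. Each mouse was therefore 1 sample, and all comparisons were also made with such cells counted once. Every member stayed on its side of the threshold in all 10 comparisons that way, except those that then had too few counts to test.

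UMIs were summed per mouse and tested across all genes with edgeR's quasi-likelihood test and Benjamini-Hochberg adjustment, with a threshold of 0.05. Levels are CPM scaled by the trimmed mean of M values (TMM) unless raw CPM is stated, fold changes are on the log2 scale with a standard error (SE), and intervals cover 95%. In summed cells, fewer cells of a type and less RNA per cell cannot be told apart. In ESCC against controls, 8 of the 9 members had enough counts to test. Of these, 0 rose and 3 fell (Erbb3, Hbegf and Lrig1), and 34.4% of the 5863 genes tested passed. The median log2 fold change of the 8 members was -0.82. In EoE against controls 2 rose (Hbegf and Ereg) and 2 fell (Erbb3 and Lrig1), again with 34.4% of genes passing. The filter on low counts kept a gene that reached 35.5 raw CPM in at least 3 mice. Ereg met this through 3 EoE mice alone and Erbb2 and Tgfa through controls alone, so those genes entered the test by the group in which they were high. The median log2 fold change of all genes tested was 0.01 in ESCC and -0.74 in EoE, so EoE values are to be read against that shift. The EoE samples were shallow, with many genes at 0, and also differed in cell makeup. The part of each in the shift was not tested. Both comparisons share the control mice. The plot of levels by mouse shows all 13 values of each gene.

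**Figure D1:**
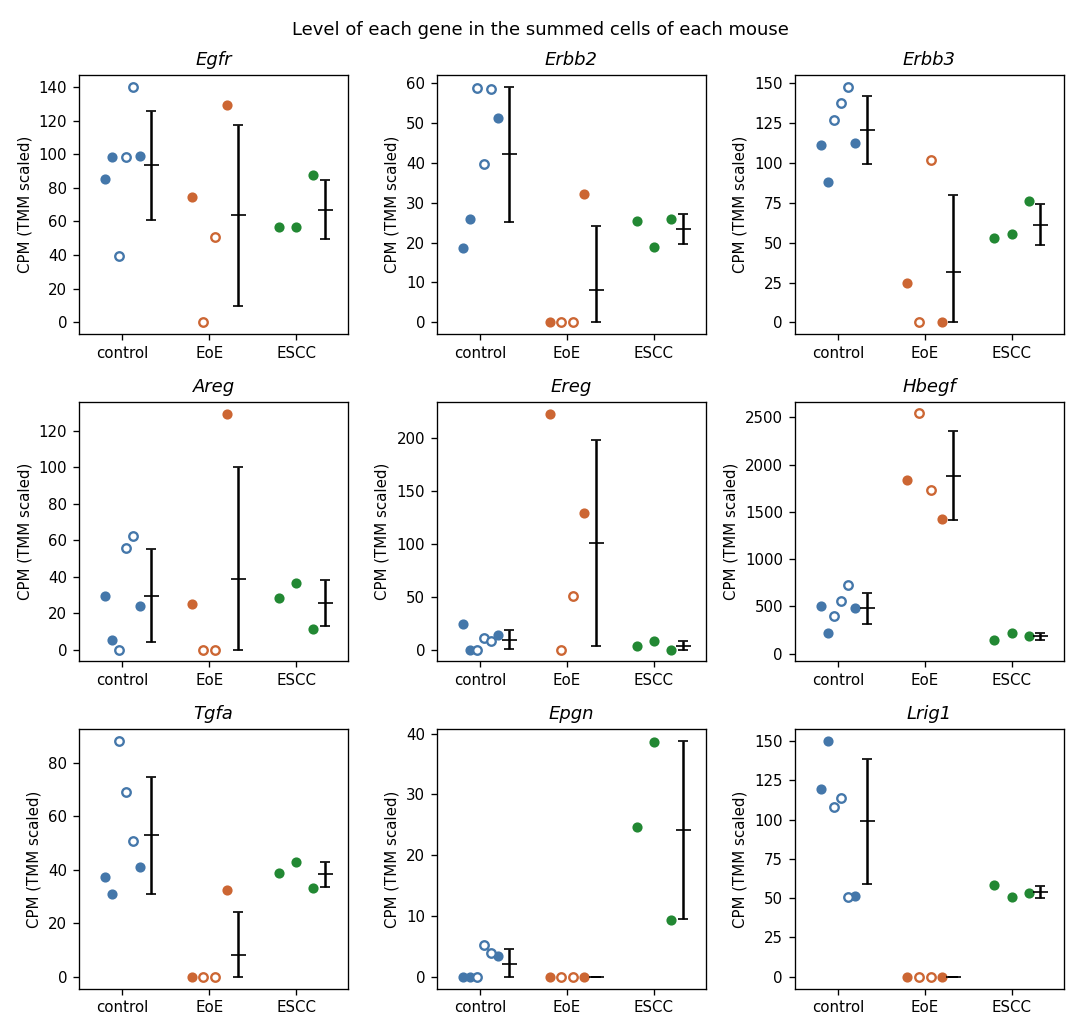
Level of each of the 9 genes in TMM-scaled CPM (vertical axis, linear) in the summed cells of each mouse, by group. Each circle is 1 mouse, open for old controls and old EoE mice and filled for the others; the black line and bar give the mean and SD, with the lower end stopped at 0. Hbegf lay above every control in all 4 EoE mice and below every control in all 3 ESCC mice, while Epgn lay above every control in all 3 ESCC mice.

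Among the receptors, Erbb3 was lower in both diseases. It ranged from 87.9 to 148 CPM in the 6 controls (median 120.1) and was 52.8, 55.2 and 75.9 CPM in ESCC mice 17F, 17M and 8M. All 3 ESCC mice were below the lowest control. The log2 fold change was -1.001 (SE 0.22, adjusted p = 0.000538, edgeR quasi-likelihood test with Benjamini-Hochberg adjustment). With all totals thinned to that of the shallowest mouse it was -1.05 and missed the threshold (adjusted p = 0.0985). In EoE mice 9, 10, 11 and 12 Erbb3 was 0, 24.8, 0 and 102 CPM, which rests on 3 UMIs over the group against 195 in controls, a pooled ratio of 0.274 (95% counting interval 0.0560 to 0.812). One EoE mouse was within the control range and the other 3 were below it. The EoE call (log2 fold change -2.01, SE 0.66, adjusted p = 0.0193) was lost without EoE mouse 9 (-1.57, adjusted p = 0.0886) or mouse 10 (-1.84, adjusted p = 0.107). It was also lost when all deposited EoE cells were summed, where Erbb3 was 55.5 to 137 CPM in the 4 mice (log2 fold change -0.35, adjusted p = 0.361).

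Egfr, the receptor that binds all 5 ligands, was 39.2 to 140.2 CPM in controls (median 98.2) and 57.0, 57.0 and 87.4 CPM in ESCC mice 17F, 17M and 8M. Those values were inside the control range. The log2 fold change was -0.56 (interval -1.01 to -0.11) and missed the threshold with all mice (adjusted p = 0.0590). It passed without ESCC mouse 8M (-0.80, adjusted p = 0.00514) or without control 3 (-0.65, adjusted p = 0.0213), while thinning to the shallowest mouse gave 0.25 (adjusted p = 0.752). In EoE mice 9 to 12 Egfr was 129, 74.3, 0 and 50.99 CPM on 8 UMIs, overlapping the controls (log2 fold change -0.30, interval -1.36 to 0.77, adjusted p = 0.695).

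Erbb2, the receptor without a ligand, was 18.6 to 58.8 CPM in controls (median 45.5) and 25.3, 19.0 and 26 CPM in ESCC mice 17F, 17M and 8M, in the lower part of the control range. Its log2 fold change of -0.78 (interval -1.41 to -0.15) gave an adjusted p of 0.0584 by edgeR's quasi-likelihood test. It passed in 3 of the 14 alternatives in which it was tested, and elsewhere the adjusted p reached 0.216. Those 3 left out ESCC mouse 8M (-0.88, adjusted p = 0.0413), control 1 (-0.98, adjusted p = 0.0225) or control 2 (-0.87, adjusted p = 0.0376). Controls 1 and 2 had the lowest control levels, 18.6 and 25.9 CPM. Erbb2 entered the test through controls alone, as given above. EoE held 1 UMI of Erbb2, in mouse 9, against 63 in controls, a pooled ratio of 0.283 (95% counting interval 0.00705 to 1.63), and did not pass (log2 fold change -1.98, adjusted p = 0.195). Over all deposited EoE cells it held 2 UMIs, and there the log2 fold change of -2.30 passed (adjusted p = 0.0294).

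Hbegf, heparin-binding EGF-like growth factor, lies on chromosome 18 (36504927 to 36515805, minus strand) and was the ligand that passed in both diseases. In the 6 controls it was 222 to 725 CPM (median 492). In EoE mice 9, 10, 11 and 12 it was 1421, 1832, 2541 and 1734 CPM, every one above the highest control. In ESCC mice 17F, 17M and 8M it was 148, 216 and 187 CPM, every one below the lowest control. The log2 fold change from control was 1.89 in EoE (SE 0.25, adjusted p = 6.08e-07), 3.71-fold higher, and -1.40 in ESCC (SE 0.25, adjusted p = 4.79e-05), 2.64-fold lower, by edgeR's quasi-likelihood test with Benjamini-Hochberg adjustment. Both calls held in every alternative fitted. The EoE value ranged from 1.47 to 2.77 over 19 of them and the ESCC value from -1.56 to -1.26 over 18. The 2 libraries of each ESCC mouse gave raw levels of 120.1 and 123 CPM (17F), 183 and 167 CPM (17M) and 144 and 148 CPM (8M). The EoE cells were shallower and more of them were Krtdap-high than in controls, and Hbegf is higher in such cells, as described below. Within Krtdap-high cells raw Hbegf was 1544, 2068, 2752 and 2200 CPM in EoE mice 9 to 12 against 378 to 764 CPM in controls, and the log2 fold change was 1.47 (SE 0.27, adjusted p = 3.91e-05). Across all deposited EoE cells, most of them below the limits, it was 1031 to 2137 CPM.

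Ereg, the gene of epiregulin, was sparse outside EoE. In controls it was 0 to 23.9 CPM (median 9.20, 19 UMIs in all) and in ESCC mice 17F, 17M and 8M 3.52, 7.72 and 0 CPM. EoE mice 9, 10, 11 and 12 had 129, 223, 0 and 50.99 CPM, from 4, 9, 0 and 1 UMIs. EoE mice 9, 10 and 12 were above every control, and mouse 11, with 6245 UMIs in all, held none. The pooled ratio of EoE to controls was 13.1 (95% counting interval 6.09 to 27.6). The log2 fold change of 3.50 (SE 0.80, adjusted p = 0.00121, edgeR quasi-likelihood test) is no independent call, because Ereg passed the filter through those 3 EoE mice and was not tested without any 1 of them. Fitted without the filter, where 15.5% of 15074 genes passed, the log2 fold change was 3.16 (SE 0.64, adjusted p = 2.3e-05). That call rested on mouse 10, without which it was lost (2.37, adjusted p = 0.0908), while it held without mouse 9, 11 or 12. Over all deposited cells, where the filter left it out, the pooled ratio was 4.33 (2.01 to 9.12). In Krtdap-high cells Ereg was 177 raw CPM in EoE on 13 UMIs and 27.7 in controls on 19, a ratio of 6.41 (2.91 to 13.7). In ESCC the log2 fold change of -1.39 missed the threshold (interval -2.71 to -0.06, adjusted p = 0.114), and it passed without ESCC mouse 17M (-2.32, adjusted p = 0.0373).

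Epgn, the gene of epigen, was the member whose ESCC levels exceeded the controls. It was 24.6, 38.6 and 9.36 CPM in ESCC mice 17F, 17M and 8M, and 0, 0, 0, 5.30, 3.90 and 3.42 CPM in controls 1, 2, 3, 4, 5 and 6, so the groups did not overlap. In UMIs these were 109 in ESCC against 4 in controls, a pooled ratio of 9.39 (95% counting interval 3.57 to 35.1). No mouse of any group reached the level that the filter asks for, so Epgn was not in the main test. Fitted without that filter, where 18.1% of 15074 genes passed, its log2 fold change was 3.20 (SE 0.58, adjusted p = 7.81e-07, edgeR quasi-likelihood test), and 4 of the 9 members passed. The level varied among ESCC mice, and in mouse 8M 1 library held 0 UMIs and the other 9. EoE cells held 0 UMIs of Epgn, which allows up to 30.6 CPM, above the control level.

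The other 2 ligands did not pass in either disease. Areg, the gene of amphiregulin, was 0 to 62.3 CPM in controls (median 26.6) and 28.1, 36.2 and 11.4 CPM in ESCC mice 17F, 17M and 8M, all within the control range (log2 fold change -0.37, interval -1.19 to 0.45, adjusted p = 0.530). EoE mice 9 to 12 had 129, 24.8, 0 and 0 CPM of Areg on 5 UMIs (log2 fold change 0.54, interval -1.39 to 2.47). Tgfa, transforming growth factor alpha, was 31.03 to 88.2 CPM in controls (median 45.8) and 38.7, 42.7 and 33.3 CPM in ESCC, again within the control range (log2 fold change -0.38, interval -0.90 to 0.14, adjusted p = 0.288). EoE cells held 1 UMI of Tgfa, in mouse 9, against 80 in controls (pooled ratio 0.223, 95% counting interval 0.00557 to 1.28). Over all deposited EoE cells it was still 1 UMI, and there the log2 fold change of -3.58 passed (adjusted p = 0.00177). Tgfa entered the test through controls alone, where it was high, so that is no independent call. In the cells used and without the filter it did not pass (-2.63, adjusted p = 0.0706, edgeR quasi-likelihood test).

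Lrig1, the receptor antagonist, was lower in both diseases. It was 50.6 to 150.0 CPM in controls (median 111) and 58.4, 50.5 and 53.0 CPM in ESCC mice 17F, 17M and 8M. The ESCC values overlapped the 2 lowest controls, 5 and 6. The log2 fold change in ESCC was -0.85 (SE 0.25, adjusted p = 0.00997, edgeR quasi-likelihood test with Benjamini-Hochberg adjustment), while DESeq2 gave -0.76 with an adjusted p of 0.0753 and thinning to the shallowest mouse -0.64 with 0.337. All 4 EoE mice were at 0 UMIs of Lrig1, against 156 UMIs in controls, a level 2.92-fold lower when set at 3 UMIs over the group. The 95% counting interval of that pooled ratio was 0 to 0.426. Its adjusted p in EoE was 0.00448, and over all deposited EoE cells, with 2 UMIs, the pooled ratio was 0.0754 (95% counting interval 0.00905 to 0.277). Among Krtdap-high cells alone, the EoE floor of 40.9 raw CPM was above the control level of 32.0, so no difference was detectable at that depth.

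**Figure D2:**
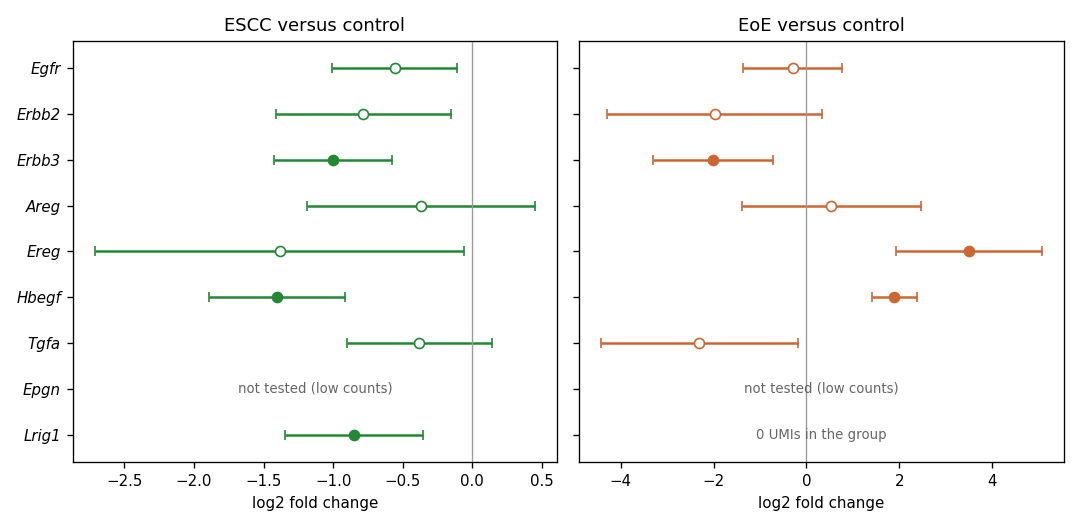
Log2 fold change (horizontal axis) of each gene against controls in ESCC (left) and EoE (right) from edgeR. Points are estimates and bars 95% intervals, and filled points passed the adjusted p of 0.05. Erbb3, Hbegf and Lrig1 lie below 0 in ESCC, Hbegf and Ereg above 0 in EoE, and Lrig1 has no estimate in EoE because the group held 0 UMIs.

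Set directly against EoE, ESCC had less Hbegf (log2 fold change -3.30, SE 0.30, adjusted p = 3.14e-10) and less Ereg (-4.89, SE 0.86, adjusted p = 3.64e-05). Ereg was in that test through the EoE mice in which it was high. Without the filter, where 19.8% of genes passed, it was -4.55 (adjusted p = 1.47e-09), and it passed without each EoE mouse in turn (-3.77 without mouse 10, adjusted p = 0.00375). Lrig1 passed as higher in ESCC (adjusted p = 0.0220, against 0 UMIs in EoE), a call lost without EoE mouse 9 (adjusted p = 0.0584) or 10 (adjusted p = 0.0973). Tgfa was above every EoE mouse in all 3 ESCC mice and did not pass (log2 fold change 1.92, adjusted p = 0.170), but did over all deposited cells (3.22, adjusted p = 0.00505). Tgfa was in those tests through controls alone, and in the cells used without the filter it did not pass (2.26, adjusted p = 0.140). Thus 3 of the 8 members tested passed with the cells used, where 41.7% of all genes did. With Krtdap-high cells alone 1 member could be tested, Hbegf, at -2.68 (adjusted p = 1.1e-07).

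Age moved no member past the threshold. In old against young controls, 0 of 6 members tested passed by edgeR's quasi-likelihood test and 0 by DESeq2, with 1 at an unadjusted p below 0.05, where 0.0971% of 5149 genes passed. That member was Tgfa, 31.03, 37.2 and 41.04 CPM in the young and 50.6, 68.9 and 88.2 CPM in the old controls, which did not overlap (log2 fold change 0.81, SE 0.35, adjusted p = 0.948). Erbb3 also did not overlap between the ages, at 87.9 to 113 CPM in young and 127 to 148 CPM in old controls (log2 fold change 0.39, adjusted p = 0.999). With 3 mice per age, how many of all genes separate in this way was not counted. Neither separation is therefore read as an effect of age. The ESCC levels of Erbb3 were below both ages. The effect of EoE did not differ between ages beyond the threshold for any of the 5 members tested (0 by edgeR, 0 by DESeq2, 0 at an unadjusted p below 0.05), where 0.0476% of genes did. Young EoE mice (6 to 8 weeks) were younger than young controls (3 to 4 months), so EoE and age cannot be told apart within that class. For Hbegf the difference between ages was -0.42 (interval -1.37 to 0.54), with 1421 and 1832 CPM in the young and 2541 and 1734 CPM in the old EoE mice.

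Cells were next placed on an axis by their own UMIs, scaled to 1000 per cell: the log10 of Krtdap, a gene of differentiating cells, minus that of the basal keratin Krt5, each after adding 1. Cells above 0.3 were called Krtdap-high, those below -0.3 Krt5-high and the rest middle. These are ranges of a score and not cell types, and 108 control and 129 ESCC cells lay within 0.1 of a bound. Levels were then scaled over the sums per mouse and range. In controls Hbegf, Areg, Ereg and Tgfa were higher towards the Krtdap-high end and Lrig1 towards the Krt5-high end.

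Hbegf was 305 ± 116 CPM (SD, n = 6) in Krt5-high, 569 ± 418 in middle and 709 ± 246 in Krtdap-high control cells. With mouse as a block, its log2 difference between Krtdap-high and Krt5-high cells was 1.24 (SE 0.14, adjusted p = 1.73e-11, edgeR quasi-likelihood test), and it stayed past the threshold in all 13 alternatives. It was the 1 of 3 members tested that passed, where 55.1% of genes did. Egfr was 112 ± 52.8 CPM in Krt5-high and 76.5 ± 30.3 in Krtdap-high control cells (log2 difference -0.59, adjusted p = 0.0783), and passed without control 1 (-0.82, adjusted p = 0.0327) or with bounds of 0.5 (-0.72, adjusted p = 0.0420). Without control 5 or control 6, 1 more member had enough counts, and 2 passed. Erbb3 was nearly level, at 123 ± 24.3 and 115 ± 50.0 CPM (log2 difference 0.05, interval -0.44 to 0.55).

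The other 6 members had too few counts per range for the main filter and were fitted without it. There 5 of the 9 members passed, where 21% of 12329 genes did. Areg rose from 8 UMIs in 862 Krt5-high control cells (8.88 ± 14.5 CPM) to 44 UMIs in 476 Krtdap-high cells (60.0 ± 48.8 CPM), a log2 difference of 2.81 (SE 0.50, adjusted p = 2.92e-07). Ereg had 0 UMIs in Krt5-high and middle control cells and 19 in Krtdap-high cells (25.0 ± 25.6 CPM, adjusted p = 9.97e-05). All 19 came from 12 cells. Tgfa was 37.6 ± 18.6 CPM in Krt5-high and 81.1 ± 35.3 CPM in Krtdap-high cells (log2 difference 1.18, SE 0.37, adjusted p = 0.00892). Lrig1 ran the other way, from 137 ± 66.2 CPM down to 45.9 ± 28.5 CPM (log2 difference -1.76, SE 0.34, adjusted p = 3.13e-06). Thus 4 ligands and the antagonist lay at opposite ends of the axis in controls, while Erbb2 (log2 difference 0.56, adjusted p = 0.422) and Epgn (4 UMIs) did not pass.

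In ESCC the axis was less populated at its Krtdap-high end, with 83 cells. Hbegf was 161 ± 28.9 CPM (SD, n = 3) in Krt5-high, 264 ± 35.5 in middle and 302 ± 172 in Krtdap-high ESCC cells. Its log2 difference between the ends was 0.89 (SE 0.25, adjusted p = 0.00409, edgeR quasi-likelihood test). Lrig1 was 60.0 ± 4.16 CPM in Krt5-high and 8.58 ± 14.9 CPM in Krtdap-high ESCC cells, where it rested on 4 UMIs (log2 difference -2.12, SE 0.71, adjusted p = 0.0182). These 2 of the 7 members tested passed, where 21.8% of genes did. Neither passed by DESeq2 (adjusted p = 0.104 for Hbegf and 0.138 for Lrig1) or by edgeR without ESCC mouse 17M (0.197 and 0.105). Without 8M the Hbegf call was lost (adjusted p = 0.107), and the Lrig1 call was lost without 17F (0.153) and with bounds of 0.5 (0.0732). The other 5 members tested did not pass. Areg was 23.5 ± 11.2 CPM in Krt5-high ESCC cells and 43.8 ± 65.1 in Krtdap-high cells, where the mice ranged from 0 to 119 CPM. Whether the slopes differ between ESCC and controls was not tested.

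**Figure D3:**
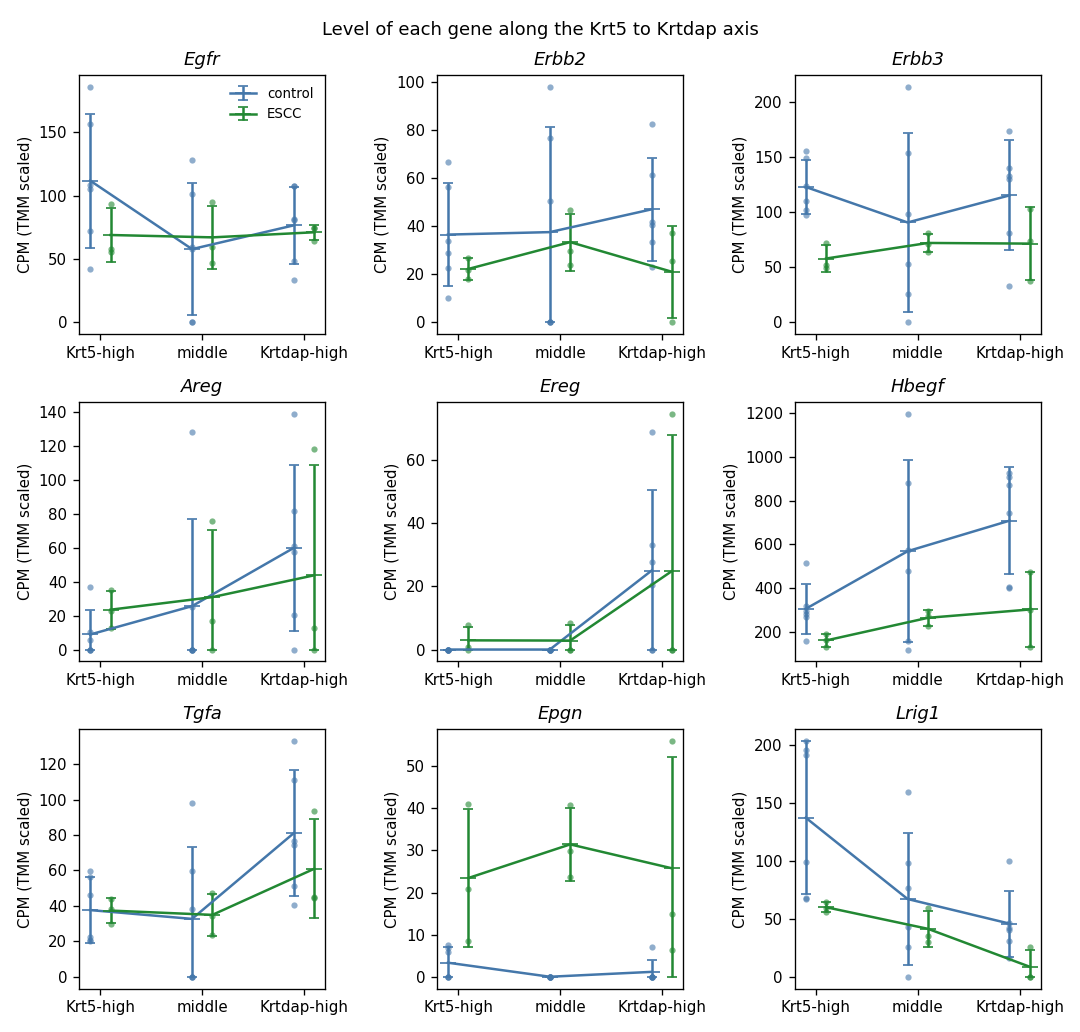
Level of each gene in TMM-scaled CPM (vertical axis, linear) in Krt5-high, middle and Krtdap-high cells of controls (blue, n = 6) and ESCC mice (green, n = 3). Dots are mice, lines join the means and bars are SD, with the lower end stopped at 0. Hbegf is higher and Lrig1 lower at the Krtdap-high end in both groups, and the mean of Hbegf is lower in ESCC than in controls in each of the 3 ranges.

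Because ESCC cells were mostly Krt5-high, ESCC and controls were also compared within each range. In Krt5-high cells all 4 members with enough counts were lower in ESCC, where 30.7% of 4126 genes passed in either direction. Of these 4, Egfr, Erbb3 and Lrig1 met the filter through controls, where they were higher, as too few ESCC mice reached its level. That all 4 were lower is therefore partly set by the filter. All members were also fitted without it by the same edgeR test, where 13.6% of 14487 genes passed. The same 4 passed there as lower, with adjusted p from 2.49e-05 (Lrig1) to 0.0308 (Egfr). Of the other 5, Epgn was higher in ESCC (log2 fold change 2.79, adjusted p = 0.000829). Areg (1.42, adjusted p = 0.0652), Ereg (3.77, adjusted p = 0.221), Tgfa (0.16, adjusted p = 0.805) and Erbb2 (-0.56, adjusted p = 0.447) did not pass. Lrig1 fell by 1.23 on the log2 scale (SE 0.29, adjusted p = 0.00251), from 137 ± 66.2 to 60.0 ± 4.16 CPM. Erbb3 fell by 1.06 (SE 0.22, adjusted p = 0.000988), from 123 ± 24.3 to 57.9 ± 12.6 CPM, with no overlap between the 3 ESCC mice (49.6 to 72.4) and the 6 controls (97.9 to 155). Hbegf fell by 0.91 (SE 0.24, adjusted p = 0.00585). It missed the threshold without ESCC mouse 17F (-0.76, adjusted p = 0.0533) and with ranges cut from lists of basal and differentiation markers (-0.63, adjusted p = 0.0642). Egfr fell by 0.76 (SE 0.29), just past the threshold with an adjusted p of 0.0479, and missed it in 8 of 17 alternatives, with adjusted p up to 0.197, which were DESeq2, bounds of 0.5 and the fits without ESCC mouse 17F or 17M or control 2, 4, 5 or 6.

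In middle cells Hbegf was the 1 member with enough counts, and it met the filter through controls alone. It was lower in ESCC (log2 fold change -1.31, SE 0.37, adjusted p = 0.00652), where 42.2% of 867 genes passed. A narrower strip around the bound ended that call (-1.01, adjusted p = 0.09996), as did leaving out the filter (-0.85, adjusted p = 0.149) and ranges from marker lists (-0.27, adjusted p = 0.501). In Krtdap-high cells 2 members were tested and 1 passed, where 22.5% of 2497 genes did. Hbegf was 399 to 925 CPM in controls and 131, 474 and 302 CPM in ESCC mice 17F, 17M and 8M, of which 17M lay within the control range (log2 fold change -1.22, SE 0.30, adjusted p = 0.00417). Erbb3 was 115 ± 50.0 and 71.5 ± 32.9 CPM (log2 fold change -0.63, interval -1.38 to 0.11, adjusted p = 0.249). Epgn had more UMIs in ESCC in every range, with 88 against 3 in Krt5-high, 16 against 0 in middle and 5 against 1 in Krtdap-high cells, from libraries of unequal depth.

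By the share of cells with at least 1 UMI, Hbegf was found in 30.8% of control, 51.7% of EoE and 29.5% of ESCC cells, and in 5 of the 38 non-epithelial cells (13.2%, median 1774 UMIs, not thinned). Those shares depend on depth. With each cell thinned to 500 UMIs, which left out 35 control and 69 EoE cells that were shallower, the share per mouse was 16.6 ± 6.66% (SD, n = 6) in controls, 59.2 ± 19.0% (n = 4) in EoE and 5.10 ± 0.703% (n = 3) in ESCC. EoE mice ran from 40.9 to 85.7%, controls from 10.9 to 28.6% and ESCC mice from 4.43 to 5.83%, with no overlap. The EoE shares rest on 22, 30, 7 and 15 cells in mice 9, 10, 11 and 12. In all 74 EoE cells were left, against 1458 control and 1467 ESCC cells. After the same thinning Erbb3 was found in 6.02 ± 2.30% of control cells and 1.93 ± 0.3002% of ESCC cells, and Lrig1 in 4.13 ± 1.45% and 1.67 ± 0.653%. Epgn was found in 1.05 ± 0.764% of ESCC cells against 0.117 ± 0.191% of control cells. None of the 38 non-epithelial cells held a UMI of Erbb3, Lrig1 or Epgn, which allows a share of up to 7.89%, above those epithelial shares, so no difference from them was detectable.

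Genes around the receptors were described by lists. Of 7 other receptors and ligands, 6 were listed in the counts and none had enough UMIs to test. The receptor gene Erbb4 had 0 UMIs in controls and 1 in ESCC, Btc, the gene of betacellulin, 10 and 8, and Egf itself 32 and 14. Of the neuregulins, which bind ERBB3 and ERBB4, Nrg1 had 18 UMIs in controls and 166 in ESCC (10.3 and 32.8 raw CPM), Nrg2 8 and 17 and Nrg4 3 and 6. EoE held 1 UMI each of Egf, Nrg1 and Nrg4. Of 10 genes of ligand shedding, 4 were tested in ESCC against controls. The metalloprotease gene Adam9 rose (log2 fold change 0.85, SE 0.28, adjusted p = 0.0197), and Rhbdf1, which encodes an inactive rhomboid protein that helps mature the sheddase ADAM17, fell by 1.01 (SE 0.24, adjusted p = 0.00132). In EoE none of these 4 passed by edgeR.

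Of 18 negative regulators of the receptors and of ERK, 14 were tested in ESCC, of which 6 fell, 0 rose and 8 did not pass, where 34.4% of all genes passed in either direction, with a median log2 fold change of -0.29 against 0.01 over all genes tested. Spry1, an inhibitor of receptor signaling, fell by 2.55 (SE 0.34, adjusted p = 5.94e-07). Errfi1, which encodes an inhibitor that binds the EGFR kinase, fell by 1.80 (SE 0.20, adjusted p = 2.21e-08). The ERK phosphatase gene Dusp5 fell by 1.20 (adjusted p = 0.00782) and Spry2 by 1.10 (adjusted p = 0.0259). In EoE 1 of the 14 rose and 3 fell, against 34.4% of all genes (median -0.93 against -0.74). Dusp5 rose by 2.07 (SE 0.53, adjusted p = 0.00335), from 36.1 raw CPM in controls to 174 in EoE. Lrig3, a relative of Lrig1, fell by 4.10 (adjusted p = 0.000647), with 1 UMI in EoE against 269, and Spred2 and Socs3 fell by 2.10 (adjusted p = 0.0178) and 1.48 (adjusted p = 0.00459). Spred2 rested on 3 UMIs in EoE, the detection floor, and Socs3 on 12.

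Of 24 adaptors and transducers 19 were tested. In ESCC 1 rose and 4 fell, where 34.4% of all genes passed, with a median of -0.07. Akt1, a kinase downstream of PI3 kinase, rose by 0.90 (adjusted p = 0.00187), while the docking protein gene Gab1 fell by 1.39 (adjusted p = 0.000179), Mapk3, which encodes ERK1, by 1.18 (adjusted p = 4.06e-05), Pik3r1, the regulatory subunit of PI3 kinase, by 0.90 (adjusted p = 0.000796) and Map2k1, which encodes MEK1, by 0.68 (adjusted p = 0.00561). In EoE 5 rose and 6 fell, where again 34.4% of all genes passed (median -0.28, which does not depend on the fitted values of genes at 0 UMIs). Braf rose by 1.84 (adjusted p = 0.00438), Map2k1 by 1.70 (adjusted p = 7.23e-06), Nras by 1.49 (adjusted p = 2.02e-05) and Sos2 by 1.42 (adjusted p = 0.0149). Hras fell by 2.82 (adjusted p = 0.000522) and Map2k2 by 1.71 (adjusted p = 0.0246). EoE held 3 UMIs of Hras, the detection floor, against 329 in controls, and 4 of Map2k2 against 210. Mapk3 and the adaptor gene Shc1 had 0 UMIs in EoE, 4.12-fold (adjusted p = 0.000123) and 1.83-fold (adjusted p = 0.00771) lower than controls when set at 3 UMIs. Map2k1 thus passed in opposite directions in the 2 diseases, with 145 raw CPM in controls, 531 in EoE and 79.8 in ESCC.

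Of 12 ERK response genes 7 were tested, of which 1 rose and 3 fell in ESCC, where 34.4% of all genes passed (median -0.38). The transcription factor genes Maff and Egr1 fell by 2.15 (SE 0.35, adjusted p = 1.22e-05) and 2.09 (SE 0.25, adjusted p = 9.36e-08), the membrane protein gene Emp1 fell by 1.88 (adjusted p = 2.4e-06), and Ier3, which encodes a survival factor of the early response, rose by 0.76 (adjusted p = 0.00520). In EoE Phlda1 rose by 1.41 (adjusted p = 0.00175), Egr1 fell by 1.20 (adjusted p = 0.00107) and Myc, with 8 UMIs in EoE, fell by 2.09 (adjusted p = 0.00351). Ccnd1, the gene of cyclin D1, had 0 UMIs in EoE against 278 in controls, 5.20-fold lower when set at 3 UMIs (adjusted p = 0.000129). The direction of these genes differed within each list, and the plot of pathway genes gives each value.

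**Figure D4:**
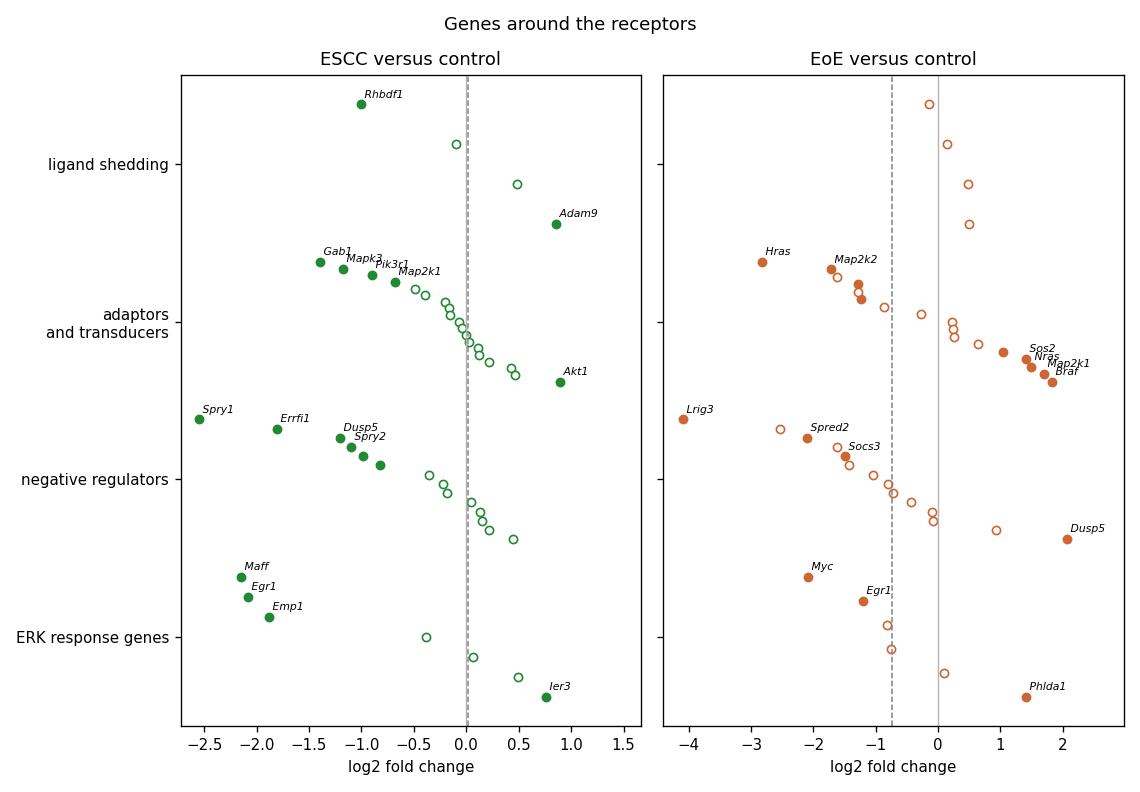
Log2 fold change against controls (horizontal axis) of each tested gene of 4 lists in ESCC (left) and EoE (right), sorted within each list. Filled points passed the adjusted p of 0.05, up to 4 per direction are named, the dashed line is the median of all genes tested (0.01 and -0.74), and genes with 0 UMIs in EoE are left out. The 6 negative regulators that passed in ESCC all lie below 0.

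Over the 9 control and ESCC mice, the genes whose log2 CPM ran most like that of the 3 members that fell in ESCC were found among 5573 genes. For Erbb3 they included Btg2 (Pearson r = 0.985) and Rgcc (0.984). For Hbegf they were Bace2 (0.986), Rhob (0.960) and Pak4 (0.959), and for Lrig1 Tmod3 (0.952), Pogk (0.941) and Tra2a (0.919). These correlations span both groups and therefore include the difference between them.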

How the data were processed

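The data are inDrop profiles from 13 mice. For the deposited counts, which are whole UMI counts per gene and cell without normalization, the authors extracted barcodes with UMI-tools 1.0.0, aligned reads with STAR 2.7.3, assigned them with featureCounts, filtered cells and genes and drew cells down to the same number per condition, 4500 in all. The strand setting is not given in the sources used here. Mice were grouped by their labels.

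Cells with 250 to 3500 genes and 100 to 9500 UMIs were kept (3103), without those called non-epithelial. That call needed at least 3 UMIs of non-epithelial markers and more of these than UMIs of epithelial markers. Cells with such markers but at least as many epithelial marker UMIs stayed in. The study set these limits to remove doublets and dead cells, and no doublet caller was run here. Most EoE cells fell outside them. UMIs were summed per mouse, or per mouse and range, filtered with filterByExpr, scaled by TMM and tested with edgeR 4.0.16 (R 4.3.3) across all genes, with all 3 groups in the disease fit. DESeq2 1.42.0, other scaling, no filter, other cells or ranges and leaving out each mouse were alternatives. Intervals are 95%. Those of log2 fold changes come from the fit and include the spread between mice, while those of pooled ratios and the floors cover counting error only. P-values measure the spread between these mice. Tables and figures used Python 3.11.15, pandas 2.3.3, scipy 1.17.1 and matplotlib 3.10.9. The test was tried on simulated data.

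All 9 members are named. One result is not reported here. Of each pathway list, up to 4 genes past the threshold in each direction with the largest log2 fold change are named, and the other receptors and ligands, none of which could be tested, were named after their values were seen. The members and lists were chosen with earlier results of these data known.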

Additional observations from a re-analysis of the deposited data

Results flagged for a closer look

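Of 40 sets of mice, 6 had 1 mouse apart from the others by Dixon's criterion, which normally distributed values meet by chance in about 1 set in 20. That rate does not apply to counts this sparse, so the 6 cannot be set against it. A set that holds 1 UMI in all always meets the criterion, as for Erbb2, Tgfa and Epgn below. In EoE, mouse 9 alone held a UMI of Erbb2 and of Tgfa, at 32.3 CPM each, with the other mice at 0. Among controls, Areg was 37.2 CPM in the Krt5-high cells of mouse 5, next to 10.3 CPM, and 128 CPM in its middle cells, next to 25.3 CPM. Epgn was 6.96 CPM, from 1 UMI, in the Krtdap-high cells of control 4 and 0 in the others. Lrig1 was 99.8 CPM, from 3 UMIs, in the Krtdap-high cells of control 3, next to 46.0 CPM.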

How the results depend on the processing

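Of the alternative values for counts of members, 132 stayed within 1.5 times the first count and 25 did not. Of those for single members, 694 kept their side of the threshold (a change of sign was not counted where a member passed in neither fit), 29 lost it and 11 gained it, and no member past the threshold changed direction. In ESCC against controls the count of 3 was 1 after thinning to the shallowest mouse and 3 to 5 when single mice were left out. In EoE against controls the count of 4 was 1 after thinning, 1 in Krtdap-high cells alone and 2 to 4 without single mice, and in ESCC against EoE the count of 3 was 1 after thinning, 1 with those 2 groups alone, 1 in Krtdap-high cells alone and 1 to 3 without single mice. Between the ranges of controls the count of 1 was 5 without a filter, 2 with bounds of 0.5 and 1 to 2 without single mice, and between those of ESCC the count of 2 was 0 by DESeq2, 1 with bounds of 0.5 and 0 to 1 without single mice. Within Krt5-high cells the count of 4 was 2 with ranges from marker lists and 2 to 4 without single mice, and within middle cells the count of 1 was 0 with bounds of 0.15 and 0 with ranges from marker lists. Thinned data and Krtdap-high cells left fewer members to test, and the cause of the other changes was not tested. Scaling by DESeq2's size factors moved the median of all genes from 0.01 to 0.12 in ESCC and from -0.74 to -0.97 in EoE. Counting shared cells once, using Krtdap-high cells alone and fitting Ereg unfiltered without each EoE mouse were chosen after seeing the data. No paired analysis was possible because replicate numbers are not shared between the groups. The 143 EoE cells limit what could be seen of genes below about 30.6 CPM.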
